A study of Mus musculus with 2 samples.

Results

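The interferon response genes described here are 39 mouse genes that interferons are known to induce, of 31053 genes in the deposited matrix. They were chosen by name and not by a measured value, though with earlier results of these data known. All 39 had a UMI (unique molecular identifier, 1 counted RNA molecule) in the kept cells, and 36 had 50 or more. The other 3 were Oasl1 with 30 UMIs, Oas2 with 9 and Ifi44 with 2. The genes were described in 3 groups: 18 of the IFIT/OAS type, 8 of the GBP/IRG type and 13 other members.

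The cells were donor T cells from 5 mouse colons in graft-versus-host disease, the attack of grafted T cells on the recipient's own organs. The recipients were Balb/c mice that were lethally irradiated and then given 5000000 bone marrow cells of C57BL/6 (B6) donors with splenocytes holding 800000 alpha beta T cells. On day 21 the cells of the 5 colons, freed with a lamina propria kit, were pooled and sorted for TCR beta and for H2-Kb, the MHC class I molecule of the donor strain. The RNA library (10x, 5' chemistry, v2) and the TCR library were made from 1 pool of cDNA, so the series is 1 sample with no group of untreated mice, no replicate and no test.

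Of 5348 cell barcodes 5333 were kept, with a median of 4800 UMIs (2549 to 39138), and 5133 of these also had a contig in the TCR library. The sample titles name CD4 T cells, but CD8 cells were more frequent. The CD4 class, with a Cd4 UMI and none of Cd8a or Cd8b1, held 1861 cells (34.9%) with a median of 4768 UMIs. The CD8 class, with the reverse, held 2391 cells (44.8%) with a median of 4910 UMIs, 301 cells had UMIs of both and 780 of neither. The sort was not pure T cells: cluster 11 of the clustering described below (74 cells) was led by genes of other cell types, such as S100a8, Ccl7 and Clu. In addition, 308 kept cells had UMIs of 2 or more of 11 macrophage markers. The 312 barcodes in either group are called barcodes of other cell types below for short. Whether each of them was another cell type was not tested. For the highest cells described below, the sums of each type, the scarce genes, Ifng and Cxcl10 are given with and without these 312 barcodes.

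Interferons are secreted proteins that bind receptors on nearly all cells. Type I interferons signal through JAK1 and TYK2 to a complex that holds STAT2 and IRF9 and binds the interferon-stimulated response element (ISRE), whereas interferon gamma, made by T cells themselves, acts on the gamma-activated sequence (GAS). Genes of the IFIT/OAS type, which sense or block viral RNA, are known mainly as type I targets; the guanylate-binding proteins (GBP) and immunity-related GTPases (IRG), which attack the compartments of intracellular microbes, respond strongly to interferon gamma, but both kinds of interferon can induce many genes of either type. In graft-versus-host disease, interferon gamma is a main product of donor T cells.

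The promoters below show these 2 kinds of site in the members with the most UMIs among those with a RefSeq promoter entry, 3 of each type. Each is the sequence before the gene start, 5′ to 3′ on the strand of the gene, in build GRCm38.p6, and is 250 bases long except for Irf7, where the 57 bases that overlap the GENCODE gene model are left out. Capitals mark matches to the ISRE core, GAAA followed by any 2 bases and GAAA, or the GAS core TTCNNNGAA, in which N is any base, on either strand.
Isg15 (chr4:156200819-156201068, minus strand): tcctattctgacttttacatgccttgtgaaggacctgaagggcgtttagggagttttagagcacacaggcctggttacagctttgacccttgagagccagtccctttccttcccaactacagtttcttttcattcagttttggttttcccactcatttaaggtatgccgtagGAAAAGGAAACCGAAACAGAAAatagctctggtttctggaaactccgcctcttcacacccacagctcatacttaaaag
Irf7 (chr7:141266482-141266674, minus strand): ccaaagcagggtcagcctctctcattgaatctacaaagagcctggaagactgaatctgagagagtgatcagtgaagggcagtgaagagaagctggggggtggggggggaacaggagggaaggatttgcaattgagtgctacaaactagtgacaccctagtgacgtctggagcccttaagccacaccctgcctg
Ifih1 (chr2:62646256-62646505, minus strand): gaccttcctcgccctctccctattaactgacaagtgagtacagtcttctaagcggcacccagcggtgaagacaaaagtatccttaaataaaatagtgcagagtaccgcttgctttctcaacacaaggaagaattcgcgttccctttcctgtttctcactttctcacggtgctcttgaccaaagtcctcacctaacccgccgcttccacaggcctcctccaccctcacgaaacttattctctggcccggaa
Irf1 (chr11:53769764-53770013, plus strand): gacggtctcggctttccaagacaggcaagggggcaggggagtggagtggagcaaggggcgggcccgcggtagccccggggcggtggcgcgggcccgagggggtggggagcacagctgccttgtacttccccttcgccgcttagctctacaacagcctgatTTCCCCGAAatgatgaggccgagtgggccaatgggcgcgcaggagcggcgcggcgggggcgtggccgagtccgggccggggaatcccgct
Ifi47 (chr11:49076337-49076586, plus strand): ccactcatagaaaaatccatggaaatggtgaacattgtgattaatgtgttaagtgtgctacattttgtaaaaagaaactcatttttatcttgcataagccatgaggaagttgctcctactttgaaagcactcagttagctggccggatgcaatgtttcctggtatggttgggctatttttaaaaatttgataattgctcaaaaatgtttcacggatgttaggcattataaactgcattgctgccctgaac
Gbp7 (chr3:142530086-142530335, plus strand): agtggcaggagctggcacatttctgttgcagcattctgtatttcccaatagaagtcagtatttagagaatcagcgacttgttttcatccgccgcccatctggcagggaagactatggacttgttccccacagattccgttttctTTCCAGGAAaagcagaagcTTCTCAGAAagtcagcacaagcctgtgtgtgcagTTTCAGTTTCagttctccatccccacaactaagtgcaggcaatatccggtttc

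The Isg15 promoter held 3 overlapping ISRE cores in 1 run of capitals, which began 78, 72 and 66 bases before the start. Gbp7 held both kinds of core, GAS cores at 106 and 87 bases and an ISRE core at 53 bases before the start, the latter read on the other strand. Irf1 held a GAS core only, 90 bases before the start. The shown stretches of Irf7, Ifih1 and Ifi47 had neither core; in Ifih1 an ISRE core lay 32 bases into the transcript.

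Over windows of 300 bases, from 250 before the start to 50 from it, 29 of the 39 members had an entry, and the ISRE core was in 16 of them (55.2%) beside 1079 of 27025 genes with an entry (3.99%). By type it was in 7 of 12 IFIT/OAS members, among them Ifit1, Ifit3, Oas1a, Oas3 and Rsad2, in 5 of 7 GBP/IRG members (Gbp2, Gbp3, Gbp7, Igtp, Irgm1) and in 4 of 10 others (Stat2, Bst2, Trim30a, Slfn5). The GAS core was in 9 of 29 members (31.0%) beside 9.55% of genes: 2 of 12 IFIT/OAS members (Ifit2, Oas1a), 3 of 7 GBP/IRG members (Irf1, Gbp7, Igtp) and 4 of 10 others (Isg20, Bst2, Ifi35, Samhd1). Oas1a, Gbp7, Igtp and Bst2 held both, as did 0.614% of genes. Thus the ISRE letters were found in most of the searched promoters of both types (58.3% of IFIT/OAS and 71.4% of GBP/IRG members), and a match describes letters, not binding.

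Some members lie side by side. In the GENCODE annotation of mm10, Ifit1, Ifit2 and Ifit3 lie within chr19:34550694-34650009, Gbp2, Gbp3 and Gbp7 within chr3:142530342-142638008, and Oas1a, Oas2 and Oas3 within chr5:120730333-120907521. Oasl1 and Oasl2 form a pair of their own at chr5:114896936-114937915. The 8 members on chromosome 11, among them Irf1, Igtp, Irgm1 and Ifi47, are spread along it. Genes of these families have close copies, so reads can be divided between Ifit3 and Ifit3b, between Oas1a and Oas1g, and among the Gbp and immunity-related GTPase genes, and their counts are uncertain to that extent.

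The first comparison asked how the members differed between the CD4 and CD8 classes. More members were lower than higher in CD4 cells, but the most abundant gene of the IFIT/OAS type, Ifi27l2a, was higher. Levels are summed UMIs of a gene per 10000 UMIs of a class, and a gene is counted as higher or lower when its ratio passed 1.5-fold. Of 35 members with 50 or more UMIs over the 2 classes, 10 were lower and 4 higher in the CD4 class; over all 10133 such genes 7.02% were lower and 7.92% higher. The ratio was below 1 for 28 of the 35, beside 5710 of all 10133 genes, and the median log2 ratio was -0.45 for members and -0.04 for all genes. Each member's level in the single pool has no spread between mice; the intervals given are exact 95% intervals for counting error.

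The GBP/IRG type was the group with the lowest median, at a log2 ratio of -0.58 over its 8 members. Irf1, the transcription factor that interferon gamma induces, had 2.04 UMIs per 10000 in CD4 and 3.08 in CD8 cells, a ratio of 0.664 (0.632 to 0.699). At an equal depth of 2000 UMIs per cell, 31.1% of CD4 and 46.4% of CD8 cells had an Irf1 UMI. Of the GTPases, 3 also passed 1.5-fold: Gbp3 at 0.353 and 0.713 UMIs per 10000 (ratio 0.495, 0.440 to 0.557), Gbp7 at 0.650 and 1.05 (0.617, 0.564 to 0.674) and Ifi47, an immunity-related GTPase, at 0.715 and 1.12 (0.635, 0.583 to 0.692). Gbp2, at 0.494 and 0.737 (0.671, 0.605 to 0.744), and Irgm1, a regulator of the other immunity-related GTPases, at 0.242 and 0.345 (0.702, 0.604 to 0.815), fell just short of 1.5-fold. Igtp had 0.581 and 0.577, with a ratio of 1.01 (0.908 to 1.12), so that the 2 classes could not be told apart by counting error. Iigp1 alone went the other way, with 70 UMIs in CD4 and 39 in CD8 cells, 0.063 and 0.026 per 10000 (2.42, 1.61 to 3.68). Its level was highest in the small Treg-like cluster, of which it is a leading gene, and in cluster 11, at 1.36 and 1.12 UMIs per 10000, and without the cells of cluster 11 its ratio was 1.72.

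The IFIT/OAS type was split. Ifi27l2a, a small interferon-induced membrane protein gene, held 12612 of the UMIs of this type, more than the other 17 together. It had 5.56 UMIs per 10000 in CD4 and 2.42 in CD8 cells (2.29, 2.20 to 2.39), and a UMI in 42.7% and 26.8% of cells at equal depth. Isg15, which encodes a ubiquitin-like protein that is joined to other proteins, had 1.39 and 0.960 (1.45, 1.35 to 1.56). Ifih1, the RNA sensor MDA5, had 0.229 and 0.107 (2.13, 1.74 to 2.61).

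Past 1.5-fold, 4 genes of this type were lower in CD4 cells. Ifit3, whose protein binds other IFIT proteins on viral RNA, had 28 UMIs in CD4 and 131 in CD8 cells, 0.025 and 0.087 per 10000 (0.288, 0.185 to 0.436). Mx1, a GTPase against influenza viruses of which C57BL/6 mice are known to carry a defective allele, had 0.067 and 0.206 (0.324, 0.248 to 0.419). Oas1a, which makes the oligoadenylates that activate RNase L, had 0.029 and 0.059 (0.485, 0.313 to 0.734), and Rtp4, an inhibitor of RNA viruses, 0.140 and 0.252 (0.553, 0.456 to 0.669). Irf7, the factor that amplifies type I interferon production, had 0.670 and 0.805 (0.832, 0.759 to 0.913). Ifit2 was at a ratio of 0.691 (0.526 to 0.901), Oas3 at 0.756 (0.567 to 1.003), and the intervals of Ifit1 (0.951, 0.721 to 1.25), Rsad2 (1.02, 0.676 to 1.54), Usp18 (0.675, 0.380 to 1.16) and Dhx58 (0.709, 0.474 to 1.05) held 1. The other 4 were under 50 UMIs and not counted. Oasl2 had 17 UMIs in CD4 and 8 in CD8 cells (2.87, 1.17 to 7.68), and Oasl1 had 11 in the 2 classes, Oas2 3 and Ifi44 2.

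Of the 13 other members, 2 were lower, Zbp1 and Xaf1, and 1 higher, Slfn5. Zbp1, a sensor of left-handed nucleic acid that can start cell death, had 0.672 and 1.07 UMIs per 10000 (0.630, 0.577 to 0.688). Xaf1, an antagonist of the apoptosis inhibitor XIAP, had 0.244 and 0.401 (0.608, 0.525 to 0.703). Slfn5, of the Schlafen family, had 117 UMIs in CD4 and 49 in CD8 cells, 0.105 and 0.033 per 10000 (3.22, 2.29 to 4.59). The dNTP hydrolase Samhd1 (1.32 and 1.36, ratio 0.974, 0.910 to 1.04) had an interval that held 1. Stat2 (0.824, 0.685 to 0.989) and Irf9 (0.878, 0.783 to 0.983), of the complex that binds the ISRE, the ADP-ribosyltransferases Parp9 (0.842, 0.733 to 0.968) and Parp14 (0.730, 0.654 to 0.813), and Dtx3l, the ubiquitin ligase that pairs with PARP9 (0.689, 0.608 to 0.781), were all slightly lower in CD4 cells. So were Bst2, the virion tether (0.842, 0.773 to 0.916), the exonuclease Isg20 (0.866, 0.792 to 0.946), Ifi35 (0.783, 0.710 to 0.862) and Trim30a, an inhibitor of Toll-like receptor signalling (0.731, 0.645 to 0.828).

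**Figure D1:**
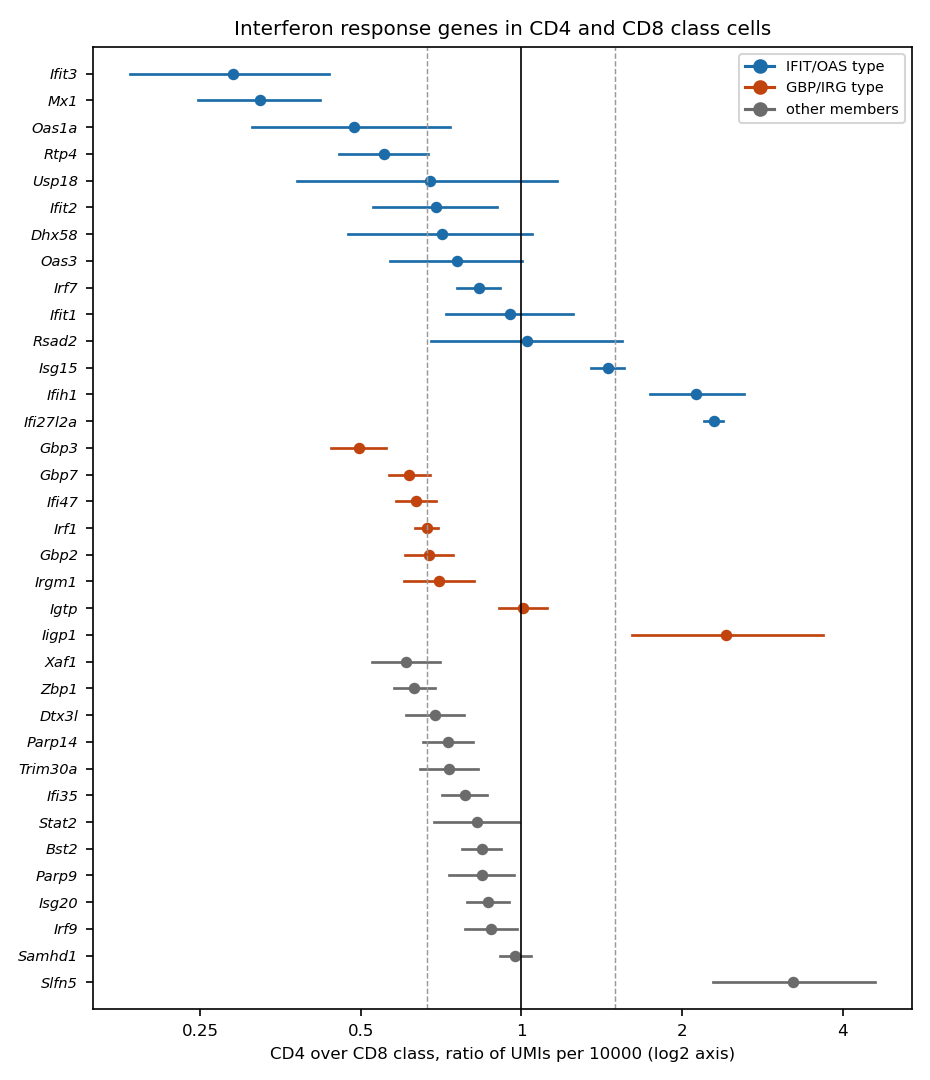
Ratio of UMIs per 10000 in the CD4 class over the CD8 class (log2 axis) for the 35 members with 50 or more UMIs in the 2 classes; bars are exact 95% counting intervals, the solid line marks 1 and the dashed lines 1.5-fold. Of the GBP/IRG type, 6 of 8 lie to the left of 1, and of the IFIT/OAS type Isg15, Ifih1 and Ifi27l2a lie clearly to the right.

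Summed over a type, the IFIT/OAS direction depended on Ifi27l2a and Isg15, whereas the GBP/IRG direction did not depend on Irf1. The GBP/IRG sum was 5.14 UMIs per 10000 in CD4 and 7.65 in CD8 cells (0.672, 0.651 to 0.694), and 0.677 (0.650 to 0.706) without Irf1. The IFIT/OAS sum was 8.46 and 5.33 (1.59, 1.54 to 1.64). Without Ifi27l2a, an alternative chosen after the data were seen, it was 2.90 in both classes (0.9997, 0.955 to 1.05). Without Isg15 too, also chosen after the data were seen, it was 1.51 and 1.94 (0.777, 0.731 to 0.825). For the Ifit and Oas families alone it was 0.307 and 0.452 (0.680, 0.595 to 0.775), with the same ratio as the GBP and IRG families. The ratio of the GBP/IRG to the IFIT/OAS ratio was accordingly 0.423 (0.405 to 0.442) with all members, 0.672 without Ifi27l2a and 0.996 between the families. At 2000 UMIs per cell, 42.6% of CD4 and 23.8% of CD8 cells had no GBP/IRG UMI, whereas 64.4% and 62.8% had no UMI of the IFIT/OAS type other than Ifi27l2a.

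Of 20 interferon ligand genes only Ifng was measured, at 1.99 UMIs per 10000 in CD4 and 2.16 in CD8 cells (0.922, 0.874 to 0.974). Of the others Ifnl2 had 1 UMI, and the Ifna genes, Ifnb1, Ifnk, Ifne and Ifnl3 had 0 in the 2 classes, so that no type I interferon transcript was detectable at this depth. The gamma receptor chain Ifngr1 had 10.6 and 9.78 (1.08, 1.06 to 1.11), and its partner Ifngr2, scarce in both, had 61 and 21 UMIs (3.92, 2.35 to 6.78). The type I receptor chains were near 1 (Ifnar1 0.997, 0.933 to 1.07; Ifnar2 0.846, 0.763 to 0.937). Among the signalling genes, Jak2, the gamma receptor's kinase, was higher in CD4 cells (1.87, 1.67 to 2.10) and Irf8, another interferon regulatory factor, lower (0.280, 0.242 to 0.322). The kinases Jak1 (0.867, 0.830 to 0.905) and Tyk2 (1.13, 0.984 to 1.31) and the factors Irf2 (0.798, 0.740 to 0.860), Irf3 (0.946, 0.828 to 1.08) and Stat3 (0.880, 0.839 to 0.922) did not pass 1.5-fold. None of 5 inhibitors passed 1.5-fold, with Socs1, the feedback inhibitor of JAK kinases, at 1.17 (1.09 to 1.25).

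Of 85 other interferon-induced genes, 71 were measured in the 2 classes; 18 were lower and 4 higher in CD4 cells, beside 7.02% and 7.92% of all genes. The ratio was below 1 for 52 of the 71, and the median log2 ratio was -0.24. The 4 were Ifi211 (1.77, 1.32 to 2.39) and 3 genes for membrane proteins that block virus entry, Ifitm1 (2.13, 2.04 to 2.23), Ifitm2 (3.69, 3.44 to 3.95) and Ifitm3, at 5.80 and 1.18 UMIs per 10000 (4.90, 4.65 to 5.17). Among the lower were Ifit1bl1 (0.302, 0.212 to 0.422), Gbp5 (0.486, 0.396 to 0.594), the immunoproteasome subunit Psmb10 (0.605, 0.570 to 0.642) and Ms4a4b (0.474, 0.457 to 0.492).

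The second question was which cells had the most of these transcripts. The 1% of kept cells with the highest IFIT/OAS sum were 53 cells with 56.7 to 257 UMIs per 10000 (median 78.9). The median of the remaining 5280 was 3.72. The next cell had 56.2 and 18 cells lay within 10% below the limit, so that the limit fell at no gap in the sum. Whether the 53 cells form a type was not tested. They had a median of 3857 UMIs, beside 4809.5 in the others. By class, 28 were CD4 cells (52.8%, 38.6 to 66.7%; 34.7% among the other cells) and 12 CD8 cells (22.6%, 12.3 to 36.2%; 45.1%). In 29 of them Ifi27l2a gave over 50% of the sum. Ranked without Ifi27l2a, the highest 53 held 15 CD4 (28.3%, 16.8 to 42.3%) and 20 CD8 cells (37.7%, 24.8 to 52.1%) and shared 26 cells with the first set, so the excess of CD4 cells rested on that gene. In that ranking 6 cells lay within 10% below the limit.

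Members that the sum did not use were higher in these cells throughout. Of 21 such members 19 had enough UMIs to be counted, and 19 of 19 were over 1.5-fold higher, beside 11.1% of 6735 genes. Their median log2 ratio was 2.09 and that of all genes outside the sum -0.10. With the sum without Ifi27l2a it was 20 of 20, beside 9.92%. The GBP/IRG sum was 21.2 UMIs per 10000 in the highest cells and 6.36 in the others (3.34, 3.05 to 3.65), with 4.04 (3.56 to 4.56) within the CD4 class and 3.48 (2.90 to 4.15) within the CD8 class. Irf1 was the least raised member, at a ratio of 1.70 (1.39 to 2.07), and without it the GBP/IRG ratio was 4.46 (4.03 to 4.93). The 13 other members together had 36.7 and 7.199 (5.09, 4.75 to 5.45), led by Bst2 at 7.98 (6.75 to 9.36). The 2 members too sparse for that count had still higher ratios, Slfn5 at 32.2 (22.9 to 44.5) with UMIs in 17 of the 53 cells and Iigp1 at 19.4 (12.1 to 29.8) in 8, with 29.2% of them in 1 cell. Without the barcodes of other cell types these were 36.6 (25.9 to 50.9) and 21.5 (12.04 to 36.01).

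Each IFIT/OAS gene was also measured in the 1% of cells chosen on the other genes of the type. Of the 18 genes 6 had enough UMIs for the count above, and the ratios of the scarcer ones rest on few UMIs. Ifit1 had 112 of its 279 UMIs (40.1%) in such cells, a ratio of 93.0 (72.5 to 119). Ifit3 at 75.9 (55.5 to 103), Rsad2, which encodes the antiviral enzyme viperin, at 73.4 (51.5 to 103) and Usp18, a protease that removes ISG15 and damps type I receptor signalling, at 62.8 (37.1 to 104) were of a like size, with overlapping intervals. Oasl1 (41.7, 15.1 to 100.4) and Oasl2 (28.8, 12.3 to 60.0), with 7 and 9 UMIs in such cells, had wide intervals. A second tier was Mx1 at 22.9 (17.3 to 30.01), Rtp4 at 13.9 (10.5 to 18.1), Isg15 at 10.7 (9.47 to 12.003), Ifit2 at 10.7 (6.57 to 16.5), Oas3 at 9.68 (5.64 to 15.6), Dhx58, the RNA sensor LGP2, at 7.60 (3.22 to 15.4) and Irf7 at 7.16 (5.94 to 8.58), with Oas1a at 12.2 (6.35 to 21.5). Ifih1 was at 4.93 (2.95 to 7.78), and Ifi27l2a had only 2.64% of its UMIs in the cells chosen without it (3.10, 2.77 to 3.46). Among the scarce genes, Ifit1, Ifit3, Rsad2, Usp18, Oasl1 and Oasl2 had 17.3% to 40.1% of their UMIs in such cells, whereas Ifit2, Oas1a, Oas3, Dhx58 and Ifih1 had 3.47% to 8.18%. Oas2 had 0 UMIs in such cells, which with 9 UMIs in all was not informative. Ifi44, with 1 of its 2 UMIs in such cells (137, 1.75 to 10762), was not informative either.

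The highest of these ratios moved with the choice of cells. Without the barcodes of other cell types Rsad2 was at 112 (75.4 to 166), Oasl1 at 94.6 (23.7 to 346) and Oasl2 at 74.5 (29.03 to 179), and the other genes of the type with 10 or more UMIs moved by less than 1.5 times. Ranked without Ifi27l2a, with all barcodes, Rsad2 was at 141 (101.4 to 198), Ifit3 at 114 (84.9 to 153), Oasl1 at 100.1 (45.2 to 219), Oasl2 at 50.8 (26.3 to 93.98), Oas1a at 18.4 (11.1 to 29.0) and Ifih1 at 7.86 (5.41 to 11.1). Among the genes with 10 or more UMIs, Ifit1 thus had the highest ratio in the first set and Rsad2 in this one, so their order changed with the choice of cells.

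**Figure D2:**
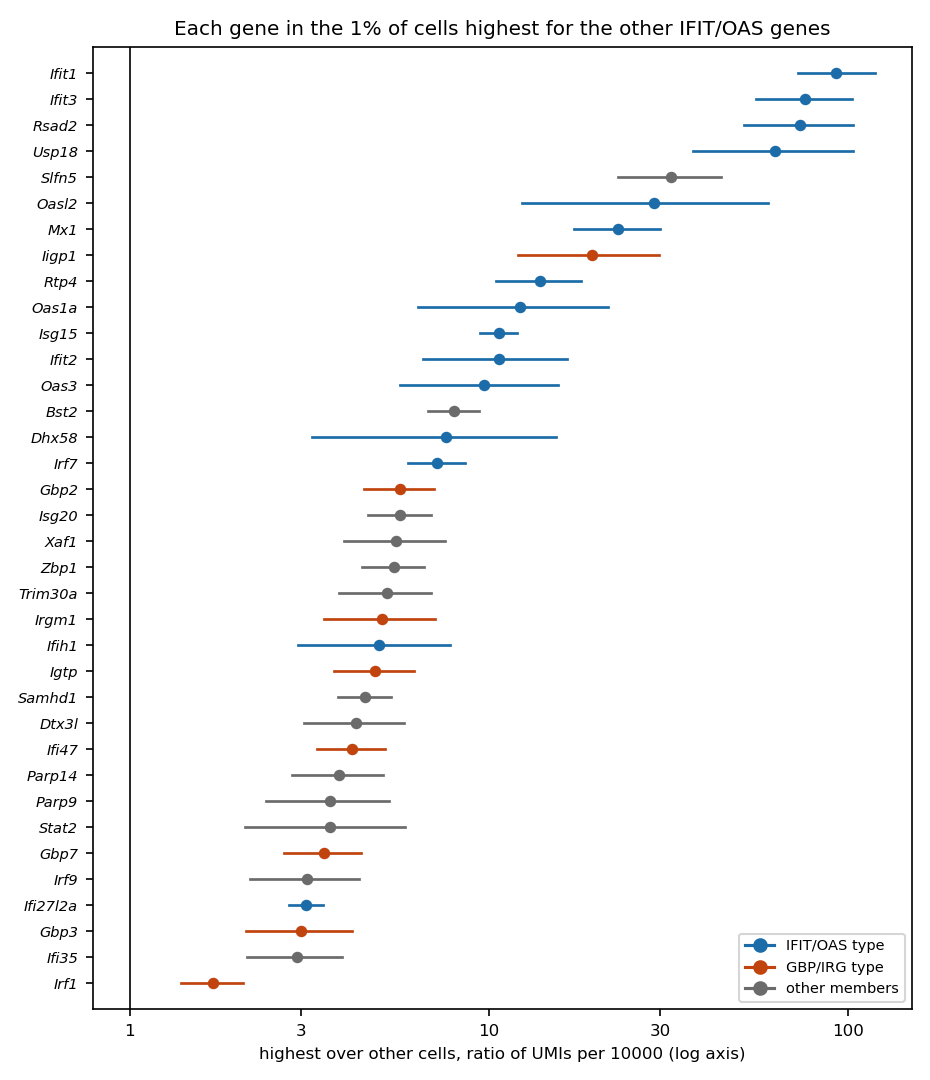
Ratio of UMIs per 10000 (log axis) of each member in the 1% of cells highest for the IFIT/OAS genes, chosen without the member itself, over all other cells; bars are exact 95% counting intervals. Ifit1, Ifit3, Rsad2 and Usp18 lie above 60, whereas Ifi27l2a (3.10) and Irf1 (1.70) are near the low end.

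The 1% highest for the GBP/IRG sum (27.5 UMIs per 10000 or more; next cell 27.2, 33 cells within 10% below) were 16 CD4 and 22 CD8 cells, and shared 16 cells (30.2%) with the IFIT/OAS set. In them 18 of 18 counted members outside the sum were higher, beside 10.2% of 7004 genes. The IFIT/OAS sum was 7.30 times that of other cells (6.89 to 7.73), and without Ifi27l2a it was 33.9 and 2.78 UMIs per 10000 (12.2, 11.4 to 13.1). The 2 types were thus high together in the extreme cells, and below the extremes the GBP/IRG level differed less. Over cells thinned to 2000 UMIs, the GBP/IRG level was 6.38 (6.19 to 6.57) in the 63.6% of cells with 0 IFIT/OAS UMIs other than Ifi27l2a, 7.26 with 1, 8.09 with 2 to 3, 11.1 with 4 to 6, 17.6 with 7 to 10 and 30 (25.1 to 35.6) in the 22 cells with 11 or more. In the CD4 class it went from 4.99 to 9.49 over the first 4 of these steps and in the CD8 class from 7.90 to 12.8; the last 2 steps hold under 20 cells in either class.

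**Figure D3:**
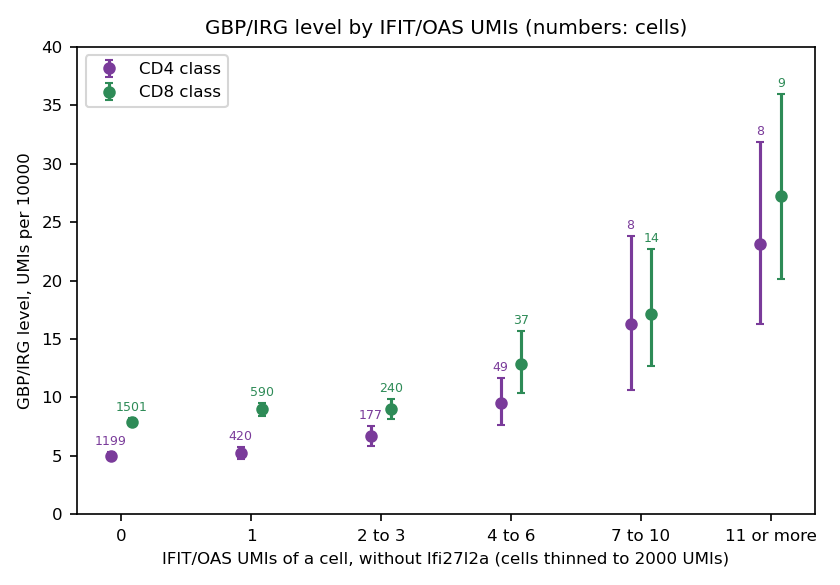
GBP/IRG level in UMIs per 10000 of CD4 (purple) and CD8 (green) class cells, thinned to 2000 UMIs and binned by their UMIs of the IFIT/OAS type without Ifi27l2a; bars are exact 95% Poisson intervals and the numbers are cells. The CD8 points lie above the CD4 points in all 6 bins, with intervals that overlap in the last 3, and both are highest in the last bin, with 8 and 9 cells.

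Other cell types moved with some of these results. In the IFIT/OAS highest cells the 11 macrophage markers summed to 4.86 UMIs per 10000 and to 4.48 in the others (1.08, 0.894 to 1.302), with 9 of 11 detected and Csf1r and Adgre1 at 0. The T cell markers were at 37.8 and 38.8 (0.976, 0.913 to 1.04). The neutrophil markers, 21.9 and 0.036 UMIs per 10000, came from 1 barcode, which also gave all UMIs of Retnlg, G0s2 and Stfa2l1 in these cells. Macrophage markers were at 80.1 and 3.82 in the cells ranked without Ifi27l2a and at 53.7 and 4.09 in the GBP/IRG highest cells, and T cell markers were lower there, at ratios of 0.824 (0.771 to 0.879) and 0.831 (0.775 to 0.889). The 4 fibroblast markers were at 0 in both IFIT/OAS sets and at 16.3 and 0.010 in the GBP/IRG highest cells, where all UMIs of Dcn and Col3a1 were in 1 barcode. The cells were therefore chosen again without the 308 cells with macrophage markers and the 74 cells of cluster 11. Leaving out cluster 11 alone took the macrophage markers of the cells outside the IFIT/OAS highest from 4.48 to 0.647 UMIs per 10000. Leaving out both groups took them to 0.401, beside 0.709 in the IFIT/OAS highest cells (1.77, 1.007 to 2.88). The macrophage marker ratio was then still 1.88 (1.09 to 3.02) in the cells ranked without Ifi27l2a. In the GBP/IRG highest cells these markers were at 1.28 and 0.397 (3.23, 2.14 to 4.70). Then 19 of 19 members outside the IFIT/OAS sum were again higher, the GBP/IRG ratio was 3.17 and the CD4 share 52.0%. Ranked without Ifi27l2a, the GBP/IRG ratio was 3.42, and in the GBP/IRG highest cells the IFIT/OAS ratio without Ifi27l2a was 12.4, and the T cell marker ratio was 0.987 and 1.01 in these sets. The 10 stress genes induced by tissue dissociation were higher as well, at 57.1 and 38.7 in the IFIT/OAS highest cells (1.47, 1.40 to 1.56), at 63.4 and 38.6 when ranked without Ifi27l2a (1.64, 1.57 to 1.72) and at 82.2 and 38.5 in the GBP/IRG highest cells (2.14, 2.05 to 2.23). Without the barcodes of both groups the stress ratios were 1.47, 1.67 and 1.83. The part of the stress genes in the results was not tested.

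Of the other interferon-induced genes 44 of 53 were higher and 2 lower in the IFIT/OAS highest cells, where 11.1% and 23.2% of all genes were. The highest of the 53 was Ifi213, of the PYHIN family, at 10.4 (7.56 to 14.0). Cmpk2, a nucleotide kinase gene next to Rsad2, was too sparse for that count and stood at 29.0 (18.9 to 43.2), or 29.9 (19.4 to 44.7) without the barcodes of other cell types. Of 4 counted receptor genes 0 were higher and 1 lower, Il10rb, a subunit shared by the IL-10 and interferon lambda receptors, with 1 UMI (0.310, 0.00784 to 1.74); Ifngr1 was at 1.01 (0.883 to 1.14) and Ifnar1 at 1.22 (0.873 to 1.67). The 12 lowest genes were Pclaf, a partner of the replication clamp PCNA (0.067, 0.018 to 0.172), the microtubule regulator Stmn1 (0.216, 0.118 to 0.363), Rrm2, Tyms and Tk1 of nucleotide synthesis, the DNA ligase Lig1, the cyclin Ccna2, Smc2, the histone chaperone Asf1b and the histone genes Hist1h2ap, Hist1h2ae and Hist1h1b. The 5 cycling markers were at 2.74 and 6.93 (0.396, 0.306 to 0.505). Depth differed as well: the highest cells had a median of 3857 UMIs. The Cycling-like cluster 4 and cluster 7 of the clustering below, with medians of 9387.5 and 10497.5, held 0 and 2 of the 53 cells. The part of depth in the low cycling genes was not tested.

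Clustering of all cells gave 14 clusters, named "-like" only where at least 3 markers of a cell type were 2-fold above the other cells. Cluster 13, with 31 cells of which 9 were in the CD4 and 16 in the CD8 class, was led by Ifit3, Ifit1, Rsad2 and Usp18, so its level of members describes how it was formed. It had 65.4 UMIs per 10000 of the IFIT/OAS type without Ifi27l2a, 27.5 of the GBP/IRG type and 56.9 of other members, and held 22 of the 53 highest IFIT/OAS cells. When the members and other interferon genes were left out of the clustering, its 31 cells went to 9 clusters, at most 8 to any. The highest level of a cluster was then 17.9 for the whole IFIT/OAS type, with Ifi27l2a, which is not the measure of the 65.4 above. The cells of cluster 13 thus stood apart in this clustering through interferon genes and were otherwise distributed over several clusters. At the lower resolution of 0.4, with the interferon genes kept, no cluster had as high an IFIT/OAS level.

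Among the other clusters the types followed different orders. Ifi27l2a was highest in the Treg-like cluster 12 (32 cells) at 15.2 UMIs per 10000, then in clusters 6 and 2, mostly CD4 cells, at 8.17 and 7.03. It was lowest in the small Th17-like cluster 14 (26 cells), at 1.06, and the CD8 cytotoxic-like cluster 3, at 1.13, with 2.11 in the Th2-like and 2.12 in the larger Th17-like cluster. Its excess in CD4 cells was therefore not shared by all CD4 clusters. The GBP/IRG level was 14.8 (13.04 to 16.7) in the Treg-like cluster, 12.1 (11.2 to 13.01) in cluster 11 and 10.4 (10.1 to 10.7) in cluster 1, the largest CD8 cluster, with Irf1 at 4.48. At the low end were Th17-like clusters 14 and 8, at 2.12 (1.39 to 3.11) and 3.82 (3.55 to 4.11), and cluster 7 at 3.75. Cluster 14 had the most Ifng, 9.23 UMIs per 10000, and the least GBP/IRG.

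**Figure D4:**
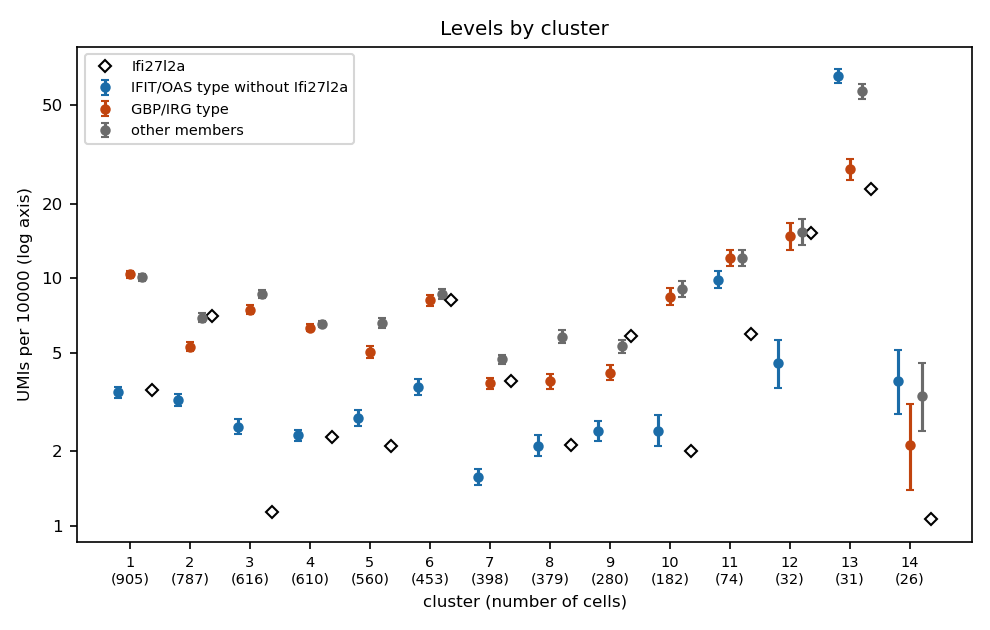
UMIs per 10000 (log axis) in each of 14 clusters, with the number of cells below, of Ifi27l2a (open diamonds), the rest of the IFIT/OAS type (blue), the GBP/IRG type (red) and other members (grey); bars are exact 95% Poisson intervals. Cluster 13 (31 cells), whose leading genes are members, stands above the others, and the Treg-like cluster 12 has the next highest GBP/IRG level, 14.8.

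The third question was whether the highest cells made cytokines. Ifng was at 2.91 UMIs per 10000 in the IFIT/OAS highest cells and 2.08 in the others (1.40, 1.09 to 1.77). With 69 UMIs, 23.2% of them in 1 cell, this was a small excess, and it was not seen within the CD4 class (0.908, 0.586 to 1.34); in the CD8 class it was 2.24 (1.42 to 3.37) over 12 cells. At equal depth 30.2% (18.3 to 44.3%) of the highest and 22.8% of other cells had an Ifng UMI, and without thinning 37.7% and 39.9%. Without the barcodes of other cell types the ratio was 1.47 (1.14 to 1.86). In the GBP/IRG highest cells it was 1.57 (1.25 to 1.94), 1.65 in both classes, and 1.90 (1.52 to 2.35) without those barcodes.

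Cxcl10, an interferon-induced chemokine that attracts T cells through CXCR3, had the highest ratio of the 18 measured genes of the cytokine list, at 6.38 and 0.605 UMIs per 10000 (10.5, 8.88 to 12.4). It had a UMI in 20.8% of the highest and 5.42% of other cells at equal depth. The ratio was 13.5 (11.3 to 16.0) without the barcodes of other cell types. It was 18.5 (16.3 to 21.1) in the GBP/IRG highest cells, or 10.7 (8.79 to 12.95) without those barcodes. Cxcl2, a chemokine outside the list, was at 20.7 with all its UMIs in 1 of the highest cells. Xcl1 (0.161, 0.044 to 0.412), Prf1, the pore-forming protein of killer cells (0.197, 0.054 to 0.506), and Csf2 (0.202, 0.055 to 0.517, its 4 UMIs in 1 cell) were lower in the IFIT/OAS highest cells. Their ratios are not split by class, and CD8 cells were 22.6% of the highest and 45.1% of the other cells. Of the 18 genes 5 were higher and 6 lower, beside 11.1% and 23.2% of all genes, so that the lower count is near the background. All 57 Ccl1 UMIs were in 1 cell, and 54.6% of Areg UMIs were as well, so those 2 rest on single cells. No cell type free of T cell transcripts was at hand to set a background for free RNA, and its part in these shares was not tested.

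Seen from the cytokine, cells with and without an Ifng UMI at equal depth had similar levels of most members. Cells without one after thinning can still have had Ifng UMIs before it, so this is not a split into makers and non-makers. In the CD4 class, 417 cells with an Ifng UMI at equal depth and 1444 without had GBP/IRG levels of 5.26 and 5.11 (1.03, 0.968 to 1.095), and in the CD8 class 571 and 1820 cells had 8.19 and 7.49 (1.09, 1.05 to 1.14), or 1.01 (0.956 to 1.07) without Irf1. The IFIT/OAS type without Ifi27l2a was at 1.26 (1.17 to 1.36) in the CD4 and 1.099 (1.03 to 1.18) in the CD8 class. In this sum Isg15 was at 1.56 (1.399 to 1.74) and 1.35 (1.201 to 1.51). The counted genes of the type had median ratios of 1.006 and 1.004, with 5 of 9 above 1 in the CD4 and 7 of 13 in the CD8 class. The excess of the sum thus does not describe the type as a whole, and the sum without Isg15 was not tested here. Of 30 members counted in the CD4 class 2 were higher and 1 lower, where 2.81% of 8917 genes were higher and 3.78% lower; of 32 in the CD8 class it was 1 and 1, where the shares of 9345 genes were 2.50% and 3.17%. These counts lie near the background.

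Clones were read from the TCR library, as cells with the same TRA and TRB chains. Of the 53 IFIT/OAS highest cells 25 had a clonotype, in 20 clonotypes, and 68.0% (46.5 to 85.1%) were of expanded clones, with 2 or more cells, beside 77.2% of other cells. The GBP/IRG highest cells had 22 in 17 clonotypes, 59.1% (36.4 to 79.3%) expanded. With the classes pooled, the highest cells thus came from many clones, and the intervals hold the share of the other cells. Within the CD8 class the GBP/IRG highest cells were less spread: 10 cells had a clonotype, in 5 clonotypes, and 5 of them were of the largest clone, with 263 cells. In the CD4 class 7 such cells were in 7 clonotypes.

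Levels differed between the large clones. Among 19 clones of 20 or more cells the IFIT/OAS level ran from 1.90 (1.51 to 2.37) in clone 5, of 56 cells and CD8, to 14.8 (12.8 to 17.2) in clone 16, of 24 cells and CD4. In clone 5 Ifi27l2a was at 0.214 UMIs per 10000 and in clone 16 at 9.33. The CD4 clones fell on both ends: clones 6, 7, 16 and 19 were above 12, and clones 11, 13 and 15 were below 4. Without Ifi27l2a the IFIT/OAS level ran from 0.893 (0.529 to 1.41) in the CD4 clone 13 to 5.53 (4.53 to 6.68) in the CD8 clone 14. Clone 16 was then at 5.52 (4.28 to 6.99), so the highest CD4 and CD8 clones did not differ. The GBP/IRG level went from 3.69 (3.09 to 4.37) in the CD4 clone 10 to 10.7 (9.29 to 12.3) in the CD8 clone 14; the largest clone, with 263 cells and CD8, had 9.41 (8.95 to 9.89). Clones differed in their main cluster, and clone and cell state cannot be told apart here. Expanded CD8 cells had a GBP/IRG level of 7.68 and single ones 6.56 (1.17, 1.099 to 1.25), CD4 cells 5.20 and 4.85 (1.07, 0.984 to 1.17).

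**Figure D5:**
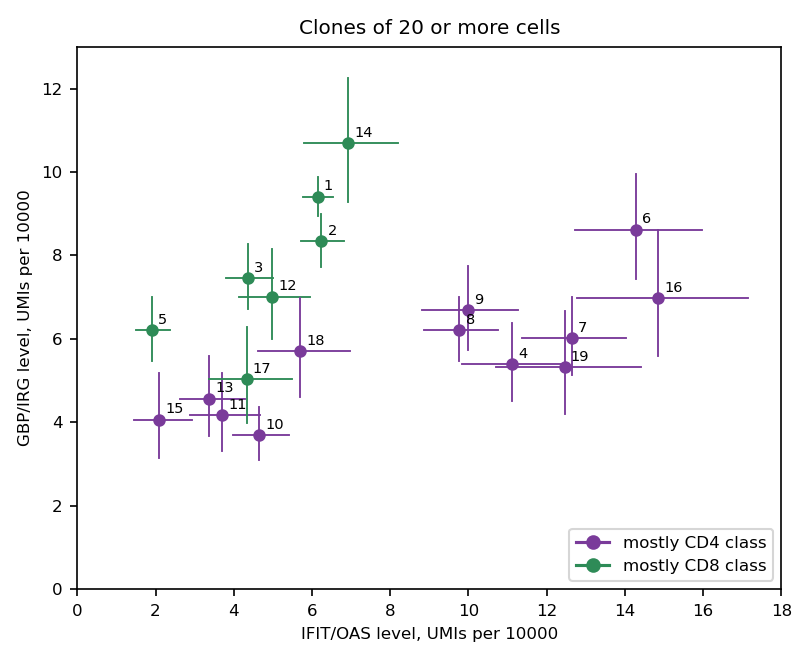
IFIT/OAS level (x axis) and GBP/IRG level (y axis), both in UMIs per 10000, of the 19 clones with 20 or more cells, numbered by size; bars are exact 95% Poisson intervals. CD8 clones (green) stay below 7 on the x axis, where the sum includes Ifi27l2a, and CD4 clones (purple) spread from 2.09 to 14.8. Without Ifi27l2a the CD8 clone 14 has the highest level, 5.53, beside 5.52 in the CD4 clone 16.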

How the data were processed

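The deposited RNA values are UMI counts per gene and barcode, whole numbers that were not normalized, and the deposited contig table gives read and UMI counts with the chain, segments and CDR3 of each TCR contig. Cell Ranger with the mm10 genome was used, per the submitters' processing notes; no version is given in the sources used here. Of all barcodes, those with at least 500 genes and at most 10% mitochondrial UMIs were kept, which left out 1 and 15. Doublets were not removed: in 232 cells (4.35%) 2 or more TRB chains were productive. Members made up 67898 UMIs (0.208%), with a median of 10 per cell.

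Levels were sums of UMIs per 10000. Intervals at 95% were conditional binomial for ratios, exact Poisson for levels and Clopper-Pearson for shares, and cover counting error only. A floor of 3 UMIs was used where a group had 0. Cells of 1 pool do not stand for replicates, and no test was made. Shares of cells were taken at 2000 UMIs per cell, below the shallowest cell. Ratios in the highest cells were counted where at least 3 UMIs would fall in them by their share of UMIs, so that the level in them did not decide. Clusters came from Leiden (resolution 0.8, 2000 variable genes without TCR and immunoglobulin segments, 30 components, 15 neighbours), and the names, rebuilt here, may differ from those of the study. Cells of a clonotype shared every productive TRA and TRB chain (V, J and CDR3 nucleotides); only cells with a TRA and exactly 1 productive TRB were used. The comparison step was tested on simulated counts, and the thinning step was checked on a part of the kept cells. Tools were Python 3.11.15, numpy 2.4.6, scipy 1.17.1, pandas 2.3.3, scanpy 1.11.5, leidenalg 0.10.2, scikit-learn 1.9.0 and matplotlib 3.10.9.

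The members and lists were chosen with earlier results of these data known. Named were the 6 members of each type with most UMIs, members past 1.5-fold, all genes of the pathway lists by count, and outside the sum the 12 highest and 12 lowest genes by the interval bound nearest 1 in the highest cells. Of the latter, S100a9, Retnlg, G0s2, Ccl21a, Stfa2l1, S100a8, Upp1 and Cxcl2 had all UMIs of the IFIT/OAS highest cells in 1 cell, and Acod1 had 93.8%. Ifi213 and Il10rb were named after their values were seen. Promoters are from RefSeq, positions from GENCODE. The results of 1 gene of the signalling list are not reported here.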

Additional observations from a re-analysis of the deposited data

How the results depend on the processing

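No paired analysis was possible because the series is 1 pooled sample. The direction of the CD4 over CD8 ratio of the 14 members past 1.5-fold was the same in 140 of 140 values over 10 alternatives to the filters, doublets, classes, weighting, scaling and other cell types. The IFIT/OAS ratio of 1.59 changed to 1.4997 as a mean over cells, 1.71 with 1 cell per clonotype (826 cells) and 1.47 without the 1% highest cells, it turned to 0.680 for the Ifit and Oas families and 0.777 without Ifi27l2a and Isg15, and without Ifi27l2a alone it was 0.9997, with an interval that held 1. The GBP/IRG ratio of 0.672 was 0.640 with classes set on at least 2 UMIs and 0.697 with 1 cell per clonotype. The ratio of the 2, 0.423, was 0.402 with at least 2 UMIs, 0.443 as a mean over cells, 0.444 without the highest cells, 0.996 for the families, 0.672 without Ifi27l2a and 0.865 without Isg15 too. With 1 cell per clonotype 5 members were lower and 2 higher, of the 25 with enough UMIs. In the highest cells the GBP/IRG ratio of 3.34 was 3.83 in 0.5% and 2.84 in 2% of cells. The CD4 share of 52.8% was 37.7% with the sum over all 39 members and 28.3% without Ifi27l2a, where the CD8 share was 37.7%. The Ifng ratio of 1.40 was 1.05 in 2% of cells and turned to 0.638 (0.234 to 1.39) with 1 cell per clonotype, which left 8 highest cells. The Cxcl10 ratio of 10.5 was 24.4 in those 8 cells, 13.5 without cells with macrophage markers and 22.0 without Ifi27l2a. The highest IFIT/OAS level of a cluster, 88.2, was 15.9 at resolution 0.4 and 17.9 in clusters made without interferon genes. The short core GAAANNGAA was in 17 of 29 member promoters and 9.76% of genes. The alternatives that leave out Ifi27l2a, Isg15, cluster 11 or, for cytokines and single genes, macrophage-marker cells were chosen after seeing the data. The other 79 values of the main comparisons moved by less than their interval or 1.5 times; of those that moved, the cause was not tested. In the 53 highest cells genes under 3 expected UMIs were not counted, and ratios given for them are imprecise.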
